A study of Homo sapiens with 6 samples.

Results

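The substrate adaptors of cullin-RING ubiquitin ligases were followed in OVCAR3 cells in which CDK12 and CDK13 were inhibited with THZ531. Members were all loci with a symbol of the FBXL, FBXO, FBXW, KLHL or KBTBD series, a prefix followed by a number, and 108 of the 47577 loci in the deposited table met this rule. Of these, 89 reached 10 or more normalized reads in 3 or more of the 6 libraries and were tested, and 19 were not. OVCAR3 cells are an established model of high-grade serous ovarian cancer (HGSOC), and THZ531 covalently blocks the paired transcriptional kinases CDK12 and CDK13. The polyA plus transcriptome was read in 3 samples that received DMSO, the solvent, and 3 that received THZ531 at 200 nM, each for 6 h. The treatment field of the labels names THZ1 at 200 nM in place of THZ531, whereas the titles, descriptions and the study itself name THZ531. All samples come from 1 established line, and the labels do not say whether replicates were separate cultures, so p-values measure the spread between these samples, which may be technical.

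Cullin-RING ligases attach ubiquitin to proteins that an exchangeable adaptor brings to the complex. F-box proteins bind SKP1 through the F-box and so join CUL1 in the SCF complex, and their substrate-binding part names the group: leucine-rich repeats in FBXL, WD40 repeats in FBXW and other domains in FBXO. KLHL and KBTBD proteins bind CUL3 directly through a BTB domain and usually hold the substrate with Kelch repeats. In dividing cells these adaptors set the turnover of cyclins, MYC, beta-catenin and mitotic kinases, among other proteins.

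Libraries held 53054048 to 70986130 reads on genes, and values are given as normalized reads, that is, reads divided by a size factor per library. All 9 markers of the line were tested and 8 were not called, with log2 fold changes from -0.46 for MUC16 to 0.58 for KRT8 and 6 of the 9 above 0 with the deposited scaling. The serous lineage factor PAX8 was at 11272 ± 545 normalized reads in DMSO and fell to 1242 ± 121 under THZ531 (SD, n = 3 each). Of 8 markers of other cells that a culture could hold, 6 were tested, CD3E was listed at 0 in all libraries, and DCN did not exceed 3.19. The summed level of these 8 was 2149 to 2510 in DMSO and 3773 to 4039 in THZ531. COL1A1 (log2 fold change 1.14), COL3A1 (0.60) and VWF (0.73) were called higher with the deposited scaling. The other tested markers, PTPRC (-0.39), PECAM1 (-0.16) and CD68 (0.02), were not called. The part of these markers in the results was not tested. In bulk RNA, a change in the number of cells of a type and a change in RNA per cell cannot be told apart.

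Promoters are shown for the 2 members with the largest falls, KLHL22 and KLHL26, and for 2 of the 3 with the largest rises, KLHL15 and KLHL3. Each window runs from 250 bases before to 50 bases after the start (RefSeq, GRCh38.p14), 5′ to 3′ on the strand of the gene, with capitals marking matches on either strand to the motifs searched. These were the TATA element TATAAA, the CCAAT box, the E-box CACGTG, the cyclic AMP response element TGACGTCA, the GC box core GGGCGG and the ETS core CCGGAA.
KLHL22 promoter, chr22:20495746-20496045, minus strand: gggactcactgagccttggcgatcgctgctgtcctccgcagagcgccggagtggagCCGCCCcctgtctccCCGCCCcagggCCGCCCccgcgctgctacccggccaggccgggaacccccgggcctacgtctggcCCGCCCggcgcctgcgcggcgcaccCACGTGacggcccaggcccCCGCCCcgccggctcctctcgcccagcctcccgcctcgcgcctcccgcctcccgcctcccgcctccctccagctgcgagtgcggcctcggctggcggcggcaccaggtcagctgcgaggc
KLHL26 promoter, chr19:18636778-18637077, plus strand: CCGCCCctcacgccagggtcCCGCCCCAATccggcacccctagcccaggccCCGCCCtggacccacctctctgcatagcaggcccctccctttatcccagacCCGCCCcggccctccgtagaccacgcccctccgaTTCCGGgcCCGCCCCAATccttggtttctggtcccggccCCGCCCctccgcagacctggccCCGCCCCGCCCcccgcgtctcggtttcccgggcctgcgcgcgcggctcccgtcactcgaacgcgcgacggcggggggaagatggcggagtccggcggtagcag
KLHL15 promoter, chrX:24027137-24027436, minus strand: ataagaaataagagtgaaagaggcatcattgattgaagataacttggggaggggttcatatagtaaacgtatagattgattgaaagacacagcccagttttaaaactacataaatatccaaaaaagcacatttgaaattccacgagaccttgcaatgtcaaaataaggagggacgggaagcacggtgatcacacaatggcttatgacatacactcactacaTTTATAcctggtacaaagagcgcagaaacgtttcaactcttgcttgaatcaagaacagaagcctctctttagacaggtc
KLHL3 promoter, chr5:137736040-137736339, minus strand: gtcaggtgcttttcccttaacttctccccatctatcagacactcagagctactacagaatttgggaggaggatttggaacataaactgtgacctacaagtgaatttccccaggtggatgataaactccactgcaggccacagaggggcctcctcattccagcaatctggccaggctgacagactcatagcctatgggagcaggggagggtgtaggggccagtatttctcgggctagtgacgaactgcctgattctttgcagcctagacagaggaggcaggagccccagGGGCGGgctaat

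The GC box core GGGCGG or its complement CCGCCC occurs repeatedly in KLHL22 and KLHL26, and occurs once in KLHL3. In KLHL26 the CCGCCC and CCAAT matches stand side by side in capitals, and such matches can share 1 base. KLHL22 also holds the E-box CACGTG. KLHL15 holds TTTATA near its start, a match to TATAAA on the strand opposite the gene. Windows within 100 bases of the start of the MANE transcript, the reference transcript of a gene, were found for 81 of the 108 members, 64 of them tested. GGGCGG was present in 18 of 20 decreased members, 6 of 8 increased members and 27 of 36 members that were not called, against 74.1% of 10251 windows of tested loci and 45.0% of all 35116 windows. CACGTG was present in 4 of 20, 0 of 8 and 2 of 36 members, against 10.1% of tested loci and 7.26% of all windows, and TATAAA in 1 of 20, 2 of 8 and 0 of 36, against 5.56% and 11.5%. For CCAAT the counts were 6 of 20, 3 of 8 and 11 of 36 (37.1% and 34.6%), for CCGGAA 6 of 20, 2 of 8 and 13 of 36 (29.9% and 17.3%), and for TGACGTCA 2 of 20, 0 of 8 and 0 of 36 (3.41% and 1.85%). These counts take matches on either strand and are small, and a match is a run of letters and not a binding site.

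THZ531 changed the adaptors in both directions, with deeper falls than rises. Calls required both a 1.5-fold change and an unadjusted p no higher than 0.05 in limma, and adjusted p-values cover all 17568 loci tested. Of the 89 members tested, 39 were called regulated (43.8%), against 39.5% of all loci. Increases numbered 17 (19.1%, against 15.7% of all loci) and decreases 22 (24.7%, against 23.9%), so the shares lay near those of the transcriptome. The median log2 fold change of the members was -0.18 (-0.007 over all loci), their interquartile range was -0.53 to 0.42, and they ran from -2.85 for KLHL22 to 1.46 for KLHL28. An adjusted p of at most 0.05 at any fold was reached by 68 members (76.4%, against 68.6% of all loci), 29 of which changed by less than 1.5-fold. The libraries of both groups did not overlap for 72 of the 89 members, against 71.7% of all loci. Both a 2-fold change and the p threshold were passed by 22 members (24.7%, against 23.0% of all loci).

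**Figure D1:**
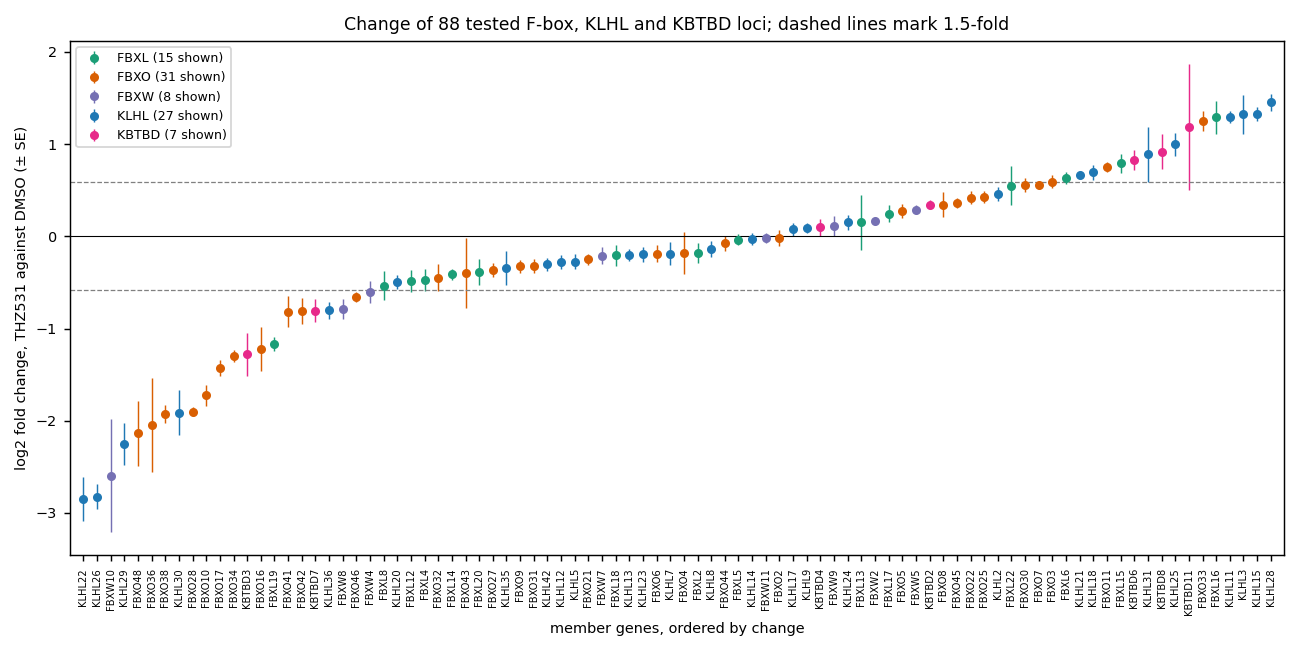
The log2 fold change of THZ531 against DMSO (y axis, ± SE) is plotted for 88 of the 89 tested members in order of change and coloured by family, with dashed lines at 1.5-fold. Changes run from -2.85 for KLHL22 to 1.46 for KLHL28, and the plotted members include 50 that were not called and 38 that were.

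The summed normalized reads were higher in all THZ531 libraries, and the direction of small changes depended on how libraries were scaled. Giving each library the same total shifted log2 fold changes by about -0.24, a scaling to RPL34, the reference transcript of the qPCR assays, by about -0.49, and an upper quartile scaling by about -0.02. Increases and decreases then numbered 16 and 22 with the upper quartile, 11 and 31 with the same total, and 7 and 47 with RPL34. The median of the members was -0.20, -0.42 and -0.67 in that order, against -0.03, -0.25 and -0.50 over all loci. All 22 decreases were called under the 4 scalings, and 7 of the 17 increases were, among them FBXL16, FBXO33, KLHL3, KLHL11, KLHL15 and KLHL28. None of the 39 called members changed sign, whereas 16 other members did under at least 1 scaling.

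**Figure D2:**
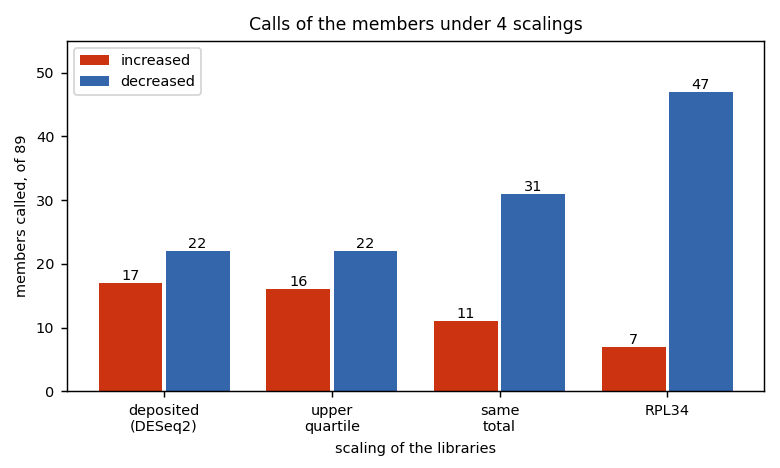
Bars give the number of the 89 members called increased (red) or decreased (blue) when the libraries are scaled as deposited, to the upper quartile, to the same total or to RPL34. Increases drop from 17 to 7 and decreases rise from 22 to 47 between the deposited scaling and RPL34.

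KLHL22 (7.21-fold) and KLHL26 (7.08-fold) fell further than any other member. KLHL22, a CUL3 adaptor that ubiquitinates the mitotic kinase PLK1, had 215, 212 and 243 normalized reads in DMSO and 29.0, 22.7 and 41 in THZ531. Its log2 fold change was -2.85 ± 0.24 (SE, limma adjusted p = 2.7e-08), and every treated library lay far below every control. KLHL26 had 568, 617 and 535 normalized reads in DMSO and 84.4, 73.9 and 81.9 in THZ531. Its log2 fold change of -2.82 ± 0.13 was the more precise of the pair (adjusted p = 4.0e-11). KLHL29, a KLHL gene with 14 exons, had 510, 549 and 468 normalized reads in DMSO and 139, 63.7 and 134 in THZ531. The treated libraries of KLHL29 spread widely, with replicate 2 the lowest, yet all lay below the controls (log2 fold change -2.25 ± 0.22, adjusted p = 2.1e-07).

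Of the 15 F-box loci that fell, 11 were of the FBXO series, which is also the largest. FBXO28, which ubiquitinates MYC without degrading it, was the most abundant of the strongly reduced members, with 4654, 4561 and 4858 normalized reads in DMSO and 1237, 1241 and 1288 in THZ531. The groups were tight and well apart (log2 fold change -1.90 ± 0.05, adjusted p = 6.2e-14). Per kb of exon, FBXO28 held rank 6 among the members in DMSO (864 normalized reads per kb) and rank 32 in THZ531 (231 per kb). FBXO38, known in T cells for the turnover of PD-1, had 906, 936 and 949 normalized reads in DMSO and 220, 264 and 249 in THZ531 (log2 fold change -1.93 ± 0.10, adjusted p = 6.4e-11). FBXO10, an adaptor for BCL2, had 560, 585 and 548 in DMSO and 157, 171 and 183 in THZ531 (-1.72 ± 0.11, adjusted p = 1.4e-09). In both genes every treated library lay far below every control.

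FBXO17, one of the F-box proteins with a glycoprotein-binding domain, fell from 998, 890 and 874 normalized reads to 354, 330 and 340 (log2 fold change -1.43 ± 0.09, adjusted p = 7.3e-10). The other members of that group, chosen after their values were seen, stayed under 1.5-fold with the deposited scaling, with log2 fold changes of -0.02 for FBXO2, -0.19 for FBXO6, -0.36 for FBXO27 (adjusted p = 0.00056) and -0.08 for FBXO44. FBXO27 was called decreased with the same total (-0.60) and RPL34 (-0.85), and FBXO6 with RPL34 (-0.68). FBXL19, which carries a CXXC zinc finger that binds unmethylated CpG, fell from 2356, 2248 and 2057 to 1010, 899 and 1058 normalized reads (-1.17 ± 0.07, adjusted p = 6.6e-10) and was the only FBXL member called decreased with the deposited scaling. Its antisense neighbour FBXL19-AS1, which shares 419 bases with it, fell by 1.45 on the log2 scale from 582 ± 37.4 to 213 ± 32.2 normalized reads (SD, n = 3), and because it is not stated whether reads were counted by strand, reads in the shared bases cannot be assigned to either gene. The listed span of MAPK3, which was not called (-0.02), also covers FBXL19.

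FBXO34 was reduced from 2020.5, 2087 and 2078 normalized reads to 916, 813 and 786 (log2 fold change -1.30 ± 0.07, adjusted p = 8.7e-11). ATG14, on the other strand, covers 29.3% of the span of FBXO34. It rose by 0.78 on the log2 scale from 520 ± 32.1 to 890 ± 30.2 normalized reads (SD, n = 3). FBXO16 was reduced from 201, 208 and 158 to 99.5, 52.3 and 97.8 (-1.22 ± 0.24, adjusted p = 0.00025), and its groups did not overlap. FBXO41 and FBXO42 fell less, by 0.82 and 0.81 on the log2 scale (adjusted p = 0.00041 and 6.2e-05). FBXO42, an adaptor linked to p53, had 310, 321 and 258 normalized reads in DMSO and 173, 163 and 168 in THZ531. Its listed span lies entirely within that of SLC25A34 on the other strand, a locus that fell by 3.50 on the log2 scale from 137 ± 24.6 to 11.3 ± 3.11 normalized reads (SD, n = 3). SPEN, also on the plus strand, covers 61.2% of the span of FBXO42 and rose by 0.63 from 581 ± 49.8 to 898 ± 66.6. Reads of the overlapping loci cannot be fully separated. In all, 31 tested members share positions with another named locus, 10 of them over at least 20% of their span.

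**Figure D3:**
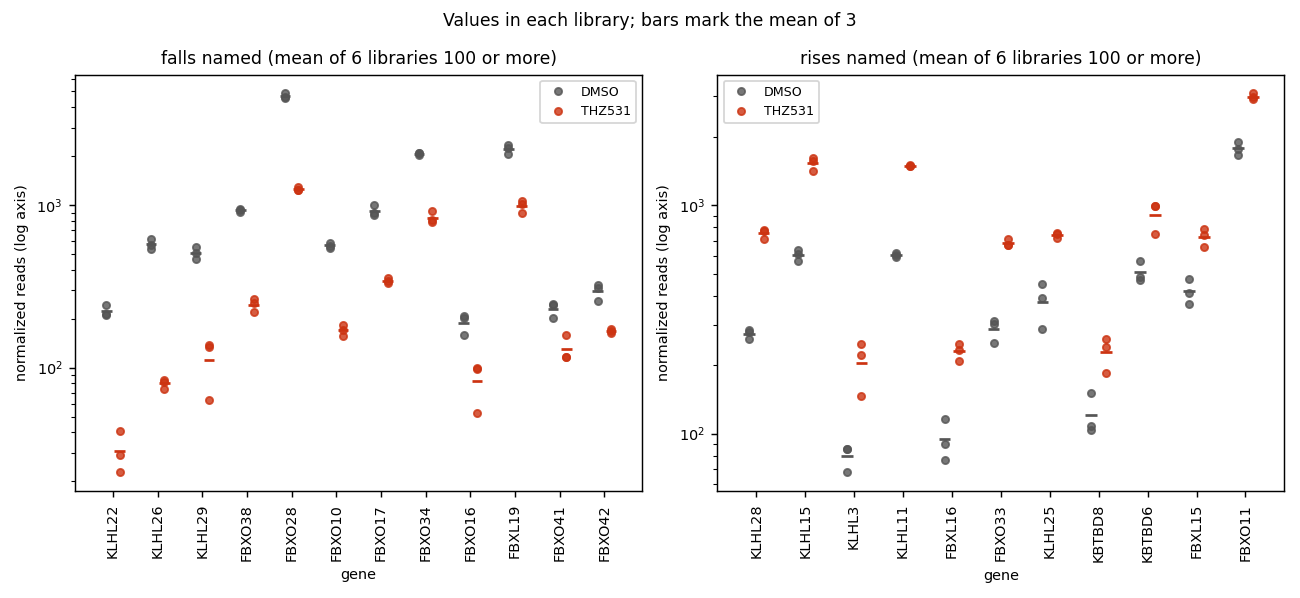
Each point is the normalized read value of 1 library (log axis) for the 12 members with the largest falls (left) and 11 of the 12 with the largest rises (right) among those with a mean of at least 100, in DMSO (grey) and THZ531 (red), and bars mark the mean of 3. The groups do not overlap for any of the 23 genes, a property used to choose them.

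Some further falls concerned members at low levels, and others were smaller falls of members at higher levels. KLHL30 (log2 fold change -1.91), FBXW10 (-2.59), FBXO48 (-2.14), FBXO36 (-2.04) and KBTBD3 (-1.28) had a mean over the 6 libraries below 100 and were likewise called decreased. In FBXW10 the treated libraries held 1.26, 14.8 and 5.69 normalized reads against 38.9, 38 and 32.7 in DMSO, so its estimate has a wide error (SE 0.61). FBXW8, the F-box partner of CUL7, fell from 617, 586 and 592 to 375, 372 and 296 (-0.79 ± 0.11, adjusted p = 6.3e-06). KLHL36, FBXO46 and FBXW4, with means of 1005, 2275 and 450 normalized reads in DMSO, were also called, at -0.80, -0.65 and -0.61.

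Of the 17 rises, 8 were of the KLHL series, and the 4 largest were all KLHL genes, from 2.46-fold for KLHL11 to 2.74-fold for KLHL28. KLHL28 rose from 279, 284 and 260 normalized reads to 768, 782 and 711 (log2 fold change 1.46 ± 0.09, adjusted p = 1.2e-09). KLHL15, an adaptor for the PP2A subunit PPP2R5B, rose from 571, 614 and 640 to 1416, 1615 and 1563 (1.33 ± 0.07, adjusted p = 2.5e-10). KLHL11 rose from 620, 594 and 603 to 1484, 1482 and 1505 (1.30 ± 0.07, adjusted p = 7.0e-11). The treated libraries of these 3 genes all exceeded every control library by more than 2-fold. KLHL3, which targets the WNK kinases and is mutated in familial hypertension with hyperkalaemia, rose from 85.7, 67.7 and 85.4 to 220, 248 and 146 (1.32 ± 0.21, adjusted p = 3.8e-05), with replicate 3 lower than the other treated libraries. KLHL25, an adaptor for the translation repressor 4E-BP1, rose from 453, 288 and 392 to 751, 717 and 757 (1.00 ± 0.13, adjusted p = 4.1e-06).

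The F-box genes that rose included FBXO33, which had 250, 313 and 302 normalized reads in DMSO and 713, 668 and 672 in THZ531 (log2 fold change 1.25 ± 0.10, adjusted p = 2.6e-08). FBXL16 had 90.5, 116 and 76.6 in DMSO and 209, 247 and 233 in THZ531 (1.29 ± 0.18, adjusted p = 9.7e-06). In both genes every treated library was above 2 times the mean of the controls. FBXO11, which directs BCL6 to degradation, rose from 1894, 1663 and 1766 to 3090, 2967 and 2908 (0.75 ± 0.06, adjusted p = 6.5e-09). FBXL15, an adaptor for SMURF1, rose from 478, 413 and 371 to 739, 655 and 787 (0.79 ± 0.11, adjusted p = 5.6e-06). Unlike FBXO33 and FBXL16, these 2 genes were not called increased under every scaling.

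KBTBD6 and KBTBD7, paralogs that act together with CUL3 on TIAM1, moved in opposite directions. KBTBD6 rose from 485, 471 and 572 normalized reads to 991, 992 and 751 (log2 fold change 0.83 ± 0.11, adjusted p = 5.2e-06). KBTBD7 fell from 332, 413 and 327 to 205, 205 and 199 (-0.80 ± 0.13, adjusted p = 3.5e-05). The signs of both held under the 4 scalings, although the rise of KBTBD6 no longer passed the fold threshold when scaled to RPL34 (0.34). Both are genes of a single exon that lie next to each other on the minus strand of chromosome 13 (KBTBD6 at 41127569 to 41132802 and KBTBD7 at 41189834 to 41194571, hg38). Their sequences were 72.2% identical over the aligned part and shared 152 identical windows of 150 bases, the read length, which made up 2.99% of the windows in KBTBD6 and 3.31% of those in KBTBD7. A single read from these windows fits both genes, and whether its mate settles the gene was not tested. KBTBD8, known for a role in neural crest formation, rose from 151, 108 and 104 to 261, 184 and 240 (0.92 ± 0.19, adjusted p = 0.00038).

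KLHL21, with KLHL9 and KLHL13 part of the CUL3 ligase for Aurora B, was the most abundant member per kb of exon in both groups (2192 normalized reads per kb in DMSO and 3473 in THZ531). It rose from 10580, 9621 and 9308 normalized reads to 15087, 15912 and 15751 (log2 fold change 0.67 ± 0.04, adjusted p = 2.1e-09), a rise that was 0.17 when scaled to RPL34. KLHL13, at 2930, 2744 and 2778 in DMSO and 2404, 2238 and 2721 in THZ531, did not pass the call (-0.20 ± 0.06, adjusted p = 0.0098) except with RPL34 (-0.70), and neither did KLHL9 (0.10 ± 0.05, adjusted p = 0.13), whose sign turned with the same total (-0.15) and with RPL34 (-0.40). KLHL18, another adaptor for mitotic Aurora kinase, rose by 0.69 ± 0.08 from 542, 638 and 582 to 967, 976 and 907 normalized reads (adjusted p = 1.3e-06). FBXL6, FBXO3 and KLHL31 completed the list of rises (0.64, 0.59 and 0.89), and KLHL31 was the only called member whose groups overlapped.

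Several of the best-known adaptors changed little with the deposited scaling. FBXW7, which recognizes phosphorylated cyclin E, MYC and NOTCH, had 517, 477 and 492 normalized reads in DMSO and 442, 434 and 408 in THZ531 (log2 fold change -0.21 ± 0.09, adjusted p = 0.054), with no overlap of the groups but a fold of 1.16, and it was called decreased with RPL34 (-0.70). FBXW11, a beta-TrCP protein that recognizes beta-catenin and NFKBIA, had 3547, 3460 and 3192 in DMSO and 3480, 3125 and 3462 in THZ531, and the groups overlapped (-0.02 ± 0.05, adjusted p = 0.77). FBXL5, the iron-regulated adaptor for IREB2, was at -0.04 ± 0.06 (adjusted p = 0.60). FBXO5, the inhibitor of the anaphase-promoting complex also called EMI1, was at 0.28 ± 0.07 with the deposited scaling and at -0.22 with RPL34. FBXO7, an adaptor gene mutated in early-onset parkinsonism, changed by 1.47-fold, just under the threshold, from 2991, 3057 and 2976 to 4455, 4320 and 4539 normalized reads (0.56 ± 0.04, adjusted p = 9.5e-09). FBXO45, which pairs with MYCBP2, went from 6264, 7190 and 7692 to 9226, 9029 and 8798 (0.36 ± 0.06, adjusted p = 3.7e-05) and was at -0.13 with RPL34.

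Among the other adaptors with known substrates, FBXL14, which acts on SNAI1, was at -0.41 ± 0.06 (limma adjusted p = 7.2e-06), KLHL20, which acts on DAPK1 and PML, at -0.49 ± 0.08 (adjusted p = 3.9e-05) and KLHL12, which ubiquitinates SEC31A in COPII coats, at -0.28 ± 0.07 (adjusted p = 0.0028). FBXO32, the atrophy-related atrogin-1, was at -0.45 ± 0.15 (adjusted p = 0.014) and FBXL20 at -0.39 ± 0.14 (adjusted p = 0.025). None of these 5 reached 1.5-fold as deposited. With the same total FBXL14 (-0.66), KLHL20 (-0.74), FBXO32 (-0.69) and FBXL20 (-0.63) were called decreased, and with RPL34 KLHL12 (-0.77) was as well. FBXL2 (-0.18), KLHL7 (-0.19) and KLHL24 (0.15) had adjusted p-values above 0.05 as deposited, as had KBTBD4 (0.10), while KBTBD2 (0.34), FBXW2 (0.17) and FBXW5 (0.29) were below it with small folds. With RPL34 as the reference, KLHL24, KBTBD4, KBTBD2, FBXW2 and FBXW5 were all below 0, and FBXL2 (-0.67) and KLHL7 (-0.68) were called decreased. FBXL8 is counted in a locus joined with HSF4, and its value of -0.53 ± 0.15 cannot be assigned to either gene. It was called decreased with the same total (-0.78) and RPL34 (-1.03).

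The balance of calls in each family is given as a description, since no test between families was run. FBXL had 4 increases and 1 decrease among 16 tested loci, FBXO had 3 and 11 among 31, and FBXW had 0 and 3 among 8. KLHL had 8 and 5 among 27, and KBTBD had 2 and 2 among 7. Median log2 fold changes were -0.11, -0.32, -0.11, -0.14 and 0.34 in that order. With RPL34 the counts of FBXL turned to 2 increases and 8 decreases and those of KLHL to 4 and 14. With the same total FBXL had 2 and 6. FBXL also had 2 decreases when DMSO replicate 3 or THZ531 replicate 3 was left out. Together, F-box loci had 7 increases and 15 decreases among 55 tested, and loci with a BTB domain had 10 and 7 among 34. The shares were 12.7% and 27.3% for F-box loci and 29.4% and 20.6% for loci with a BTB domain. Over all loci 15.7% were increased and 23.9% decreased, so the F-box shares lay near those of the transcriptome. The summed normalized reads of the F-box members were 61716 to 61970 in DMSO and 59680 to 60913 in THZ531, and those of the KLHL and KBTBD members were 34113 to 35661 in DMSO and 41754 to 42491 in THZ531, of which KLHL21 alone had a mean of 9836 and 15583.

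The members at the edge of detection add little. KBTBD11, just inside the minimum, had 12.7, 3.71 and 2.39 normalized reads in DMSO and 21.4, 13.6 and 6.83 in THZ531, with overlapping groups (log2 fold change 1.18 ± 0.68, adjusted p = 0.14), and FBXO43, likewise near it, was at -0.40 ± 0.38. KLHL38, just outside, had 1.59, 1.86 and 6.38 in DMSO and 5.04, 13.6 and 9.10 in THZ531, and FBXO24 did not exceed 6.50 in any library. Of the 19 members not tested, 5 (KLHL1, KLHL40, FBXO39, FBXO40 and KBTBD12) were listed at 0 in all 6 libraries. A listing at 0 need not mean lack of expression, since CUL3 itself, a gene that most cells use, was listed at 0 in all 6 libraries.

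Gene structure was compared with the change over 87 members with a MANE transcript and an unshared symbol. Increased members had a median span of 21900 bases and 4 exons, decreased members 41616 bases and 7.5 exons, and members not called 35792 bases and 8 exons. Among all loci with a symbol and a MANE transcript, the medians were 29452, 28802 and 26925 bases and 8, 8 and 9 exons. The Spearman correlation of log2 fold change with span was -0.21 over the 87 members and -0.05 over 13246 loci, and with the exon number -0.18 and -0.02. These are correlations across genes, which are not independent replicates. Members with 8 or more exons had 5 increases and 11 decreases among 42, those with 4 to 7 exons had 8 and 7 among 29, and those with 1 to 3 exons had 4 and 4 among 16. The shares increased and decreased were 11.9% and 26.2%, 27.6% and 24.1%, and 25% and 25% in that order, beside 11.2% and 21.7%, 12.3% and 23.8%, and 20.9% and 26.3% over all symbol loci.

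**Figure D4:**
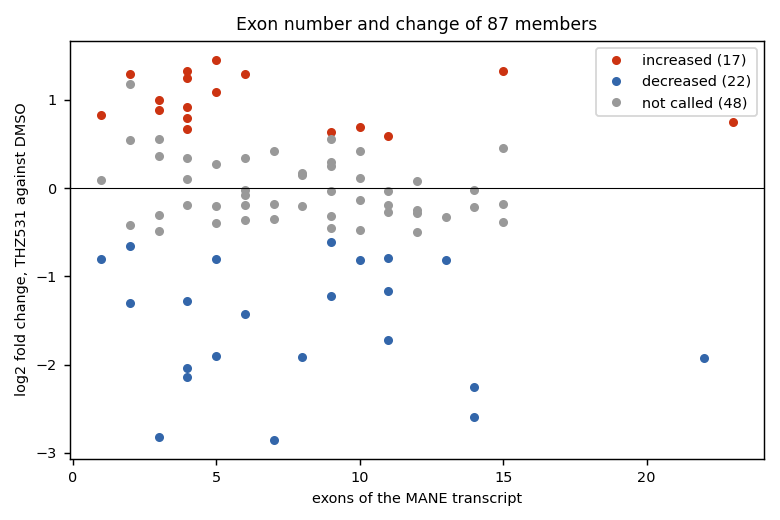
The number of exons of the MANE transcript (x axis) is plotted against the log2 fold change (y axis) for 87 members, coloured by call. Members with few exons occur among both rises and falls, and the relation is weak (Spearman correlation -0.18).

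Loci without a symbol that lie inside a member were examined because the study describes last exons within introns under THZ531. There were 54 such loci inside 34 members, of which 9 were tested, and 3 were called increased and 2 decreased. Over all loci 15.7% were called increased and 23.9% decreased, and 9 loci are too few to compare with these shares. Their strands were inferred from the order of the locus identifiers. For some, among them the tested locus inside FBXO25, this order did not settle the strand. The locus inside KLHL28 covers chr14:44938552-44940570 (hg38, minus strand), lies in intron 2 from 4460 to 6478 bases after the 5′ splice site, and had 27.8, 44.5 and 51.9 normalized reads in DMSO and 173, 217 and 198 in THZ531. It rose by 2.25 ± 0.24 on the log2 scale (adjusted p = 5.1e-07), beside 1.46 for KLHL28. The locus holds 1 AATAAA, the main polyadenylation hexamer, at position 561 of its 2019 bases, and 1 ATTAAA, a variant of it, at position 1096. The AATAAA begins 1459 bases from the end of the locus and the ATTAAA 924, and whether either is used was not tested. The 150 bases around the AATAAA are shown because they place the hexamer (capitals) within a rising intronic locus.
KLHL28 intron 2, chr14:44939933-44940082, minus strand: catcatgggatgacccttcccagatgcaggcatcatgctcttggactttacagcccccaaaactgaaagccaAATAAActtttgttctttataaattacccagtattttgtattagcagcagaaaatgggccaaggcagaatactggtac

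The locus inside FBXO34 moved against its host. It covers chr14:55298721-55299243 (hg38, plus strand) in intron 1, from 27184 to 27706 bases after the 5′ splice site, and rose from 67.5, 66.8 and 96.5 normalized reads to 695, 731 and 631 (log2 fold change 3.16 ± 0.16, adjusted p = 5.6e-11), whereas FBXO34 fell by 1.30. It overlaps CHMP4BP1, a processed pseudogene at 55298644 to 55299231, and was 91.8% identical to the transcript of CHMP4B over the aligned part. Whether reads of the locus can be told apart from those of CHMP4B was not tested. CHMP4B, a subunit of the membrane-cutting ESCRT-III complex, changed from 10492 ± 526 to 13359 ± 390 normalized reads (SD, n = 3 each; log2 fold change 0.35) and was not called. Neither AATAAA nor ATTAAA occurs in the 523 bases. The end of the locus is shown to place it beside its parent gene.
FBXO34 intron 1, chr14:55299094-55299243, plus strand: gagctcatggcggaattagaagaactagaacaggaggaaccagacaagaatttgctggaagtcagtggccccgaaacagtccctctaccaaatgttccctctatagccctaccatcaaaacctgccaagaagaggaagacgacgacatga

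A locus in intron 4 of FBXO32 rose from 18.3, 19.5 and 12.8 normalized reads to 107, 136 and 115 (log2 fold change 2.77 ± 0.29, adjusted p = 3.6e-07), while FBXO32 itself was at -0.45. A locus in intron 7 of FBXO25 fell from 232, 260 and 262 to 86.9, 89.8 and 83.1 (-1.52 ± 0.16, adjusted p = 3.1e-07), while FBXO25 was at 0.42, and a locus opposite FBXW12 fell by 2.18 ± 0.42 (adjusted p = 0.00023). In these 5 loci, picked because they were called, the groups did not overlap, which also held for 71.7% of all loci. The microRNA locus MIR589 inside FBXL18, singled out after its values were seen, had 6.35, 6.50 and 3.99 normalized reads in DMSO and 45.3, 26.1 and 20.5 in THZ531 (2.21 ± 0.51, adjusted p = 0.0011), beside -0.20 for FBXL18, and polyA plus libraries do not measure mature microRNAs.

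The core of the ligases changed unevenly. CUL1, the scaffold of the SCF complex, fell from 6463, 6176 and 6753 normalized reads to 2175, 2254 and 2436 (log2 fold change -1.50 ± 0.05, adjusted p = 1.1e-12). SKP1, which links F-box proteins to CUL1, rose from 14382, 13969 and 14194 to 23045, 22897 and 22661 (0.69 ± 0.03, adjusted p = 3.1e-11). No library of either gene overlapped with the other group. Of 42 genes for scaffolds, RING subunits, neddylation, exchange and ubiquitin-conjugating enzymes, 41 were tested, with 8 increases and 3 decreases (26.8% called, against 39.5% of all loci, median 0.19). The share increased was 19.5% and the share decreased 7.32%, beside 15.7% and 23.9% of all loci. The other decreases were CAND2 (-0.95) and CUL9 (-0.76), and the largest increases were the neddylation cofactor DCUN1D3 (1.33), the conjugating enzymes UBE2D1 (1.01) and UBE2G1 (0.71), and the COP9 signalosome subunit COPS8 (0.70). With the same total there were 2 increases and 6 decreases, and with RPL34 1 and 11, so the prevailing direction of this group depended on the scaling.

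**Figure D5:**
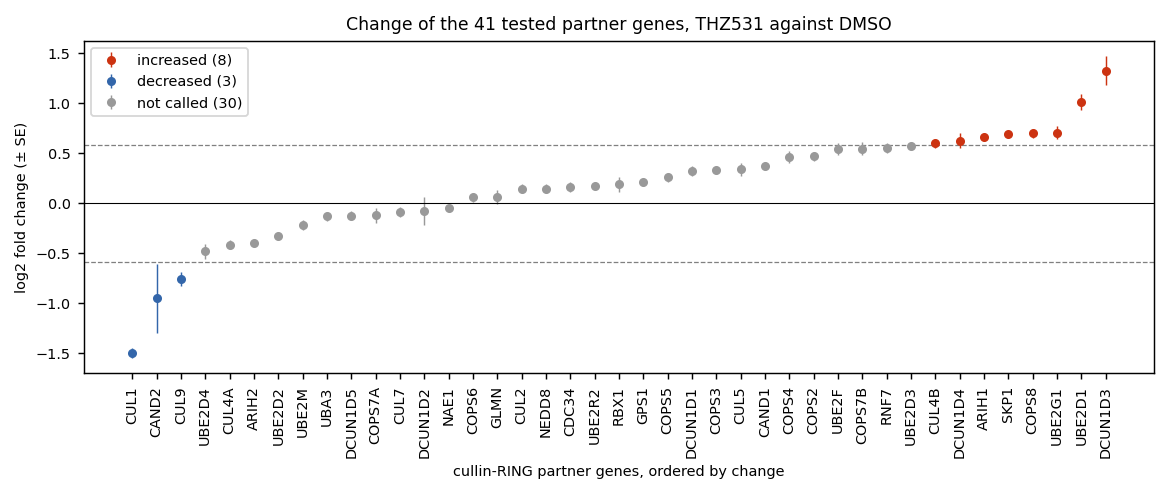
The log2 fold change of THZ531 against DMSO (± SE) is plotted for the 41 tested partner genes of cullin-RING ligases with the deposited scaling, with dashed lines at 1.5-fold. CUL1 (-1.50) lies at the lower end and DCUN1D3 (1.33) at the upper end, and the balance of rises and falls turns when libraries are scaled to the same total or to RPL34.

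Of 10 F-box and Kelch genes with other symbols, SKP2, the adaptor for CDKN1B, rose from 3058, 2846 and 2930 normalized reads to 4653, 4637 and 4358 (log2 fold change 0.63 ± 0.05, adjusted p = 6.6e-09), and ENC1 rose by 0.81. CCNF, the adaptor called cyclin F, fell by 0.65 and IPP by 0.59, among 3 decreases. The share increased was 20% and the share decreased 30%, beside 15.7% and 23.9% of all loci. KEAP1, the adaptor for NFE2L2, was at -0.29, and BTRC, the partner of FBXW11, at -0.51, both below 1.5-fold. Without DMSO replicate 3, 1 of these 3 decreases was called. The rises of SKP2 and ENC1 no longer passed with the same total or with RPL34.

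Transcripts of 37 textbook substrates and effectors were read beside their adaptors, although a transcript level says nothing of protein turnover. There were 11 increases and 4 decreases (40.5% called, against 39.5% of all loci, median 0.21). The share increased was 29.7% and the share decreased 10.8%, beside 15.7% and 23.9% of all loci. Increases and decreases turned to 7 and 6 under the same total and to 5 and 9 under RPL34. BCL6, a substrate of FBXO11, rose from 866, 927 and 871 normalized reads to 2583, 2600 and 2306 (log2 fold change 1.49 ± 0.06, adjusted p = 1.1e-11). SNAI1, a substrate of FBXL14, rose by 1.43 ± 0.09, MYC, a substrate of FBXW7, by 1.20 ± 0.06, and BCL2L11 by 1.16 ± 0.05. For FBXO11 and BCL6, adaptor and substrate transcripts were both higher in every THZ531 library. Falls were called for AURKB (-0.79), NFE2L2 (-0.76), MYCBP2 (-0.65) and DVL1 (-0.60). AURKB encodes the Aurora B kinase on which KLHL21 acts, and a link between the changes of these genes was not tested. KLHL21 was called increased with the deposited scaling but not with the same total or RPL34. PLK1, which the strongly reduced KLHL22 ubiquitinates, was at 0.21 and was not called.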

How the data were processed

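The authors sequenced polyA plus RNA (TruSeq Stranded mRNA, 150 bp paired-end), mapped it to hg38 with STAR (2.7.5a in the submitters' processing notes, another version in the study's methods), counted reads with featureCounts on FAST DB genes, and deposited DESeq2-normalized values, a signal without correction for gene length. Whether counting used strand is not given in the sources used here. In every library 100% of values were whole multiples of 1 step (tolerance 0.02 reads), so read counts were recovered.

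Values were tested as log2(value + 1) with limma 3.58.1 (trended variance, R 4.3.3, no covariates) over the 17568 loci that reached 10 in 3 or more libraries; fold changes on this scale understate those of low genes. The fold and p thresholds follow the study's methods. P-values were adjusted by the Benjamini-Hochberg method. On recovered reads, edgeR 4.0.16 called 6863 loci and DESeq2 1.42.0 called 6788, against 6948. The scripts were tested on simulated data. Exons came from GENCODE MANE transcripts. Alternatives were other pseudocounts, minimums, scalings, thresholds and tools, a replicate block, and leaving out joint loci or each library.

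Members and gene lists were chosen with earlier results of these data known. The text names the 12 largest rises and 12 largest falls among called members whose mean was 100 or more and whose groups were fully separate, a fixed list of well-known adaptors, joint loci, members near the minimum, the 4 largest called changes per direction in each gene list and the 6 largest called nested loci. Genes outside this rule, such as SKP1, KEAP1 and BTRC, were chosen after their values were seen. Some named items are not reported here.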

Additional observations from a re-analysis of the deposited data

How the results depend on the processing

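With the deposited scaling, 39 members were regulated, 17 increased and 22 decreased, with a median log2 fold change of -0.18. A fold threshold of 2 left 4042 of all loci, 22 members and 7 increases. Scaling to the same total gave 11 increases and a median of -0.42, and scaling to RPL34 gave 7 increases, 47 decreases and a median of -0.67. Both scalings shift all loci alike by construction. Leaving out each library in turn gave 38 to 41 regulated members, 16 to 19 increases, 21 to 23 decreases, 6714 to 6910 regulated loci and a median of -0.19 to -0.13. Other alternatives stayed within 1.5 times these counts, and no called log2 fold change of a named gene turned its sign. edgeR shared 38 of the 39 calls (FBXO3 was lost) and DESeq2 shared all 39. Deviations of same-numbered samples correlated at 0.002, 0.019 and -0.039, so the values showed no sign of pairing by replicate number. These correlations cannot show whether same-numbered samples were prepared together. With the replicate block, 39 members and 6918 loci were regulated. KBTBD11 passed the call without DMSO replicate 1 or THZ531 replicate 3, and FBXL8 without DMSO replicate 3 or THZ531 replicate 3. Depth limits the members near 10 normalized reads, where 1 library can decide a call.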
